A study of Homo sapiens with 21 samples.

Results

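The SLAM family is a set of surface receptors of the immunoglobulin superfamily found on blood cells. Expression of its genes was followed in OCI-AML5, a human acute myeloid leukaemia cell line, treated with UM171, a small molecule that promotes ex vivo expansion of human haematopoietic stem cells. Members were taken by name: the 9 receptor genes SLAMF1, SLAMF6, SLAMF7, SLAMF8, SLAMF9, CD48, CD84, CD244 and LY9 on chromosome 1, and the adaptor gene SH2D1A on the X chromosome. All 10 were found among the 58174 genes of the deposited tables. SLAMF7 was included because its response to UM171 differed strongly between genotypes in these same libraries, so that difference is given below as a description with no test.

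The 21 libraries of polyA RNA fell into 7 groups of 3. Control cells received the solvent DMSO, or UM171 for 6, 24, 48 or 72 h. Cells that express a guide RNA against EPCR (sgEPCR), the endothelial protein C receptor encoded by PROCR, received DMSO or UM171 for 24 h. The labels give 500 nM UM171 in every treated library. The DMSO libraries are labelled 72 h and the sgEPCR DMSO libraries 24 h, so genotype and time in DMSO cannot be told apart. The DMSO and UM171 24 h libraries stand as the control for sgEPCR, although their labels name no guide. The labels call the sgEPCR cells an AML5 clone, EPCR null and an EPCR knockdown, and do not tie a library to a clone. The study's text reports 3 independent sgEPCR clones and does not tie them to libraries either. Nothing in the labels says that replicates came from separate cultures, so the p-values measure the spread between these libraries, which may be technical.

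Library totals ran from 24286668 to 51540166 counts, with a median of 33888914. PROCR, the targeted gene, was at 48.48 to 48.50 TPM (a transcript level scaled for gene length and depth) in UM171 24 h and at 4.23 to 8.94 TPM in sgEPCR UM171. In DMSO it was at 3.37 to 4.30 TPM and in sgEPCR DMSO at 2.30 to 4.53 TPM, so in DMSO the 2 genotypes overlapped. sgEPCR DMSO replicate 1 and sgEPCR UM171 replicate 2 stood apart from the others: mitochondrial genes took 35.9% and 32.2% of their counts, against 7.73% to 13.5% in the other 19 libraries. TPM of nuclear genes is lower in such a library, so the fitted sgEPCR values of the members are given with and without these 2 libraries. Without them 2 libraries remain in each sgEPCR group. The counts of these pairs differ little, with a chi-square per gene of 4.69 in DMSO and 1.65 in UM171. Against the library left out it was 514 to 717. The small SE and adjusted p-values of the fit without them rest on this narrow spread. UM171 48 h replicate 3 also stood apart, to a lesser degree: its counts differed from the other 2 libraries of its group with a chi-square of 46.1 and 49.9 per gene, against 6.87 between those 2. Of the 8 myeloid markers, CD33 was at 34.6 to 178.7 TPM, SPI1 at 95.7 to 426.5, ITGAM at 2.84 to 100.3, CSF2RA at 2.64 to 21.3, CD34 at 0.68 to 10.1 and MPO at 0.48 to 9.08 over all libraries, while KIT stayed at or below 0.25 TPM and CD14 at or below 0.42 TPM. Summed NK cell markers stayed at or below 0.45 TPM and summed plasma cell markers at or below 0.08 TPM in every library.

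Most SLAM receptors bind a copy of themselves on the neighbouring cell. CD244, also called 2B4, instead binds CD48, a family member anchored to the membrane by a lipid and lacking a cytoplasmic tail. The tails of SLAMF1, SLAMF6, SLAMF7, CD84, CD244 and LY9 carry tyrosine switch motifs. Depending on the receptor, these bind the small SH2 adaptors SAP (the product of SH2D1A), EAT-2 (SH2D1B) or both, and bound SAP brings in the kinase FYN. Where the adaptors are missing, the same motifs can bind the phosphatases SHP-1 (PTPN6), SHP-2 (PTPN11) and SHIP-1 (INPP5D). In mouse bone marrow, SLAMF1, CD48 and CD244 are widely used to sort haematopoietic stem cells from progenitors.

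On GRCh38 (GENCODE v44 annotation), 7 of the 9 receptor genes lie side by side within 0.378 Mb of chromosome 1, from the start of SLAMF6 at 160485030 to the end of CD244 at 160862887. In order along the chromosome they are SLAMF6, CD84, SLAMF1 (160608106 to 160647044, minus strand), CD48 (160678746 to 160711831, minus strand), SLAMF7 (160739057 to 160754821, plus strand), LY9 (160796074 to 160828261, plus strand) and CD244 (160830160 to 160862887, minus strand). SLAMF8 and SLAMF9 lie apart, between 159826811 and 159954237. An annotated antisense RNA gene overlaps CD48 and held 0 to 19 counts, against 1458 to 11509 counts for CD48. RefSeq (GRCh38.p14) gave a promoter for 7 of the 10 members, and the 250 bases before the start of SLAMF1, CD48 and CD244 are shown because these clustered genes moved in opposite directions, the first 2 up and the last down. All 3 are read 5′ to 3′ on the minus strand, and capitals mark a match to TGANTCA, the letters bound by AP-1 factors. SLAMF1 is chr1:160647045-160647294, CD48 is chr1:160711823-160712072 and CD244 is chr1:160862888-160863137.
SLAMF1: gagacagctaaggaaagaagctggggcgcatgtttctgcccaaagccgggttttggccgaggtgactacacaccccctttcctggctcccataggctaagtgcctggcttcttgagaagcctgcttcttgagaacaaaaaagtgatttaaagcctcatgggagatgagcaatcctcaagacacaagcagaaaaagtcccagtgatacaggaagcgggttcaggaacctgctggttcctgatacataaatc
CD48: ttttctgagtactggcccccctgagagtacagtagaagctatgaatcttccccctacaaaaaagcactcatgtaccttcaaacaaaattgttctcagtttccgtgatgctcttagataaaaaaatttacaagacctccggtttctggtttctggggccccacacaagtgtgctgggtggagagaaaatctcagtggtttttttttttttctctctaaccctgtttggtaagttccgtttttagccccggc
CD244: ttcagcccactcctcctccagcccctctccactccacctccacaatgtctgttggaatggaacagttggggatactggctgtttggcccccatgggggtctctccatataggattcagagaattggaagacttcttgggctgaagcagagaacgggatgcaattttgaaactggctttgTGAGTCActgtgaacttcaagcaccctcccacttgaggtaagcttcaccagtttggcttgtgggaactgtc
The search covered both strands for TGANTCA and for GAGGAA, the core bound by the myeloid factor PU.1 (encoded by SPI1), and no matches overlapped. CD244 held 1 match to TGANTCA and none to GAGGAA, and SLAMF1 and CD48 held neither. TGANTCA is present in 6.57% and GAGGAA in 23.6% of 35116 human promoters of the same length, and these matches are a description only. A search for the NF-kB motif, whose letters are present in 1.73% of promoters, found no match in SLAMF1, CD48 or CD244. Among the members whose promoter is not shown, SLAMF8 held a match to each of the 3 motifs, SLAMF9 to TGANTCA, and SLAMF6 and SH2D1A to GAGGAA.

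In DMSO, the order of TPM levels in the family was CD48 (114 ± 8.6, SD, n = 3), CD244 (75.95 ± 2.12), CD84 (32.7 ± 1.2), SLAMF7 (4.16 ± 0.42), LY9 (2.25 ± 0.37) and SLAMF1 (1.92 ± 0.45). LY9 and SLAMF1 did not differ beyond their spread, since their libraries overlapped, and the other neighbours in this order did not overlap. SLAMF6, SLAMF8, SLAMF9 and SH2D1A were below 1 TPM in every library of the series. At 72 h of UM171 the order was CD48 (405 ± 15), LY9 (38.5 ± 0.75), CD84 (32.7 ± 1.4), CD244 (30.7 ± 2.2), SLAMF1 (20.5 ± 2.0) and SLAMF7 (19.3 ± 2.3). There CD84 overlapped CD244 and SLAMF1 overlapped SLAMF7. The mean of CD244 had dropped below those of LY9 and CD84, and LY9 had passed SLAMF7, CD84 and CD244.

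**Figure D1:**
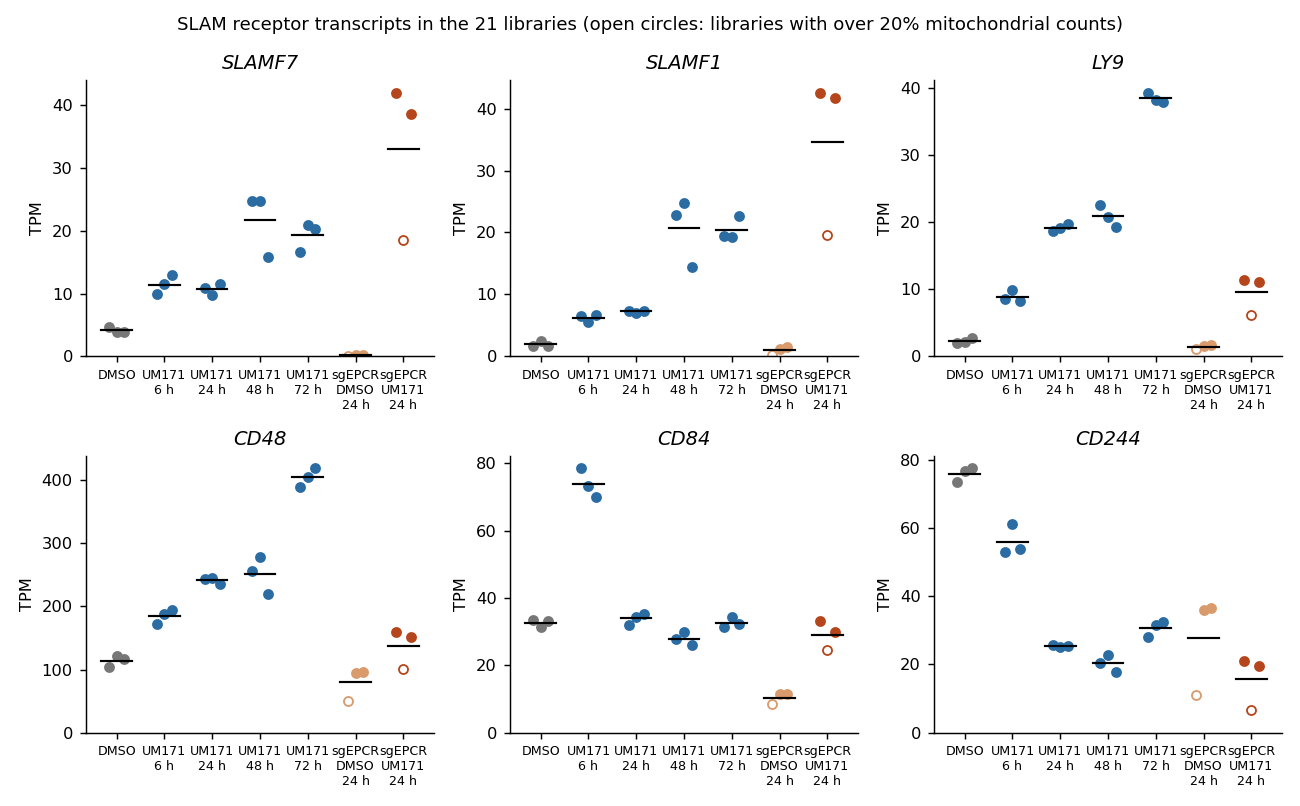
TPM of 6 SLAM receptor genes in each of the 21 libraries (points, 3 per group) with the group mean (bar), each panel on its own linear axis from 0. SLAMF7 and SLAMF1 have their lowest group mean in sgEPCR DMSO and their highest in sgEPCR UM171, CD84 peaks at 6 h, and CD244 is highest in DMSO; open circles are the 2 libraries with over 20% mitochondrial counts.

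The time course asked when each gene moved after UM171 was added. A gene is called changed, risen or fallen here when edgeR's quasi-likelihood test gave a Benjamini-Hochberg adjusted p under 0.0001 over all genes tested and the fold change was over 2. In control cells LY9, SLAMF1 and SLAMF7 rose at 6 h and were up at 72 h, CD48 passed these limits from 24 h on, CD84 at 6 h alone, and CD244 fell from 24 h on. Of the 10 members, 8 passed the filter on low counts, SLAMF6 and SLAMF9 through their treated libraries; SLAMF8 and SH2D1A did not. At 6 h, 5 of these 8 passed as higher, SLAMF6 among them, against 6.78% of all 16575 genes tested that rose. At 24 h, with SLAMF7 left out, 3 of 7 rose and 1 fell, against 9.03% and 4.7% of all genes. At 48 h, 4 of 8 rose and 1 fell, against 11.7% and 4.67%. At 72 h, 5 of 8 passed as higher, SLAMF6 again among them, and 1 fell, against 15% and 5.8%. SLAMF7 is counted at 6, 48 and 72 h, although the DMSO libraries were among those used to choose it. The members were picked by name with earlier results in view and some passed only through their treated libraries, so these counts describe the family and are not evidence about it. SLAMF6 and SLAMF9 drop out when at least 10 counts are required in every library. Then 4 of 6 members passed the limits at 6 h, up or down, against 1022 of 13388 genes. At 72 h 5 of 6 did, against 2735 of 13388 genes. All 4 time points share the same DMSO libraries, labelled 72 h, so for the earlier times the hours in culture differ as well. In the steps that involve the UM171 24 h libraries, SLAMF7 was left out, since those libraries were used to choose it. From 6 to 24 h 1 of the 7 others rose (LY9) and 1 fell (CD84), against 3.61% and 6.43% of all genes. Which genes passed there differed with the scaling. Under upper quartile and total count scaling the log2 value of LY9 was 0.91 and 0.87, short of 2-fold, and that of CD244, -0.92 by the main scaling, was -1.03 and -1.07 and passed, as it did by limma (-1.11). From 24 to 48 h 1 of 7 rose (SLAMF1), against 2.51% of all genes that rose and 0.338% that fell. From 48 to 72 h no member passed the limits by edgeR, DESeq2 or limma, against 2.59% of genes that rose and 0.76% that fell by edgeR, and at an unadjusted edgeR p under 0.05 4 members were higher and 1 lower, as were 30.5% and 31.1% of all genes.

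LY9, a homophilic receptor of lymphoid cells also known as CD229, had the largest fold change among the members at 72 h. Its TPM was 1.97, 2.12 and 2.67 in DMSO, 8.49, 9.92 and 8.21 at 6 h, and 18.72, 19.11 and 19.76 at 24 h. It was 22.62, 20.81 and 19.31 at 48 h, and 39.35, 38.27 and 37.90 at 72 h. No treated library overlapped DMSO, and the 24 h and 48 h libraries overlapped each other. The log2 fold change of LY9 counts against DMSO was 1.77 at 6 h, 2.79 at 24 h, 3.05 at 48 h and 3.98 ± 0.07 (SE) at 72 h, or 15.8-fold, with edgeR adjusted p = 1e-16 at 72 h. Between 6 and 24 h LY9 rose by a further 2.03-fold (edgeR adjusted p = 9.5e-10), which was 0.99 on the log2 scale without UM171 24 h replicate 3 and then just under the 2-fold limit. From 48 to 72 h its counts were 1.91-fold higher (adjusted p = 1.6e-09), short of 2-fold, and 2-fold was passed under 2 other scalings (log2 1.02 and 1.01).

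SLAMF1, also called CD150 and the measles virus receptor on lymphocytes, rose in steps. Its TPM was 1.72, 2.43 and 1.60 in DMSO, 6.47, 5.46 and 6.62 at 6 h, and 7.32, 7.07 and 7.37 at 24 h. It then reached 22.82, 24.77 and 14.41 at 48 h and 19.43, 19.21 and 22.72 at 72 h. The 48 h libraries spread most, with the lowest value in replicate 3, and all of them lay above every 24 h library. SLAMF1 counts were 2.64-fold DMSO at 6 h (log2 1.40 ± 0.13, SE), 3.61-fold at 24 h and 11.2-fold at 48 h (log2 3.48 ± 0.11, edgeR adjusted p = 3.7e-14), or 3.57 on the log2 scale without UM171 48 h replicate 3. The step from 24 to 48 h was 3.10-fold (adjusted p = 5.5e-10), while 72 h and 48 h differed by -0.06 on the log2 scale (edgeR adjusted p = 0.55).

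SLAMF7, also called CS1, marks plasma cells and NK cells and is a drug target in multiple myeloma. Its TPM was 4.65, 3.91 and 3.92 in DMSO, 9.90, 11.52 and 12.93 at 6 h, and 10.96, 9.77 and 11.54 at 24 h. It was 24.74, 24.83 and 15.80 at 48 h and 16.66, 20.88 and 20.36 at 72 h. The 6 h and 24 h libraries overlapped, as did those of 48 h and 72 h, and the 2 later groups lay above the 2 earlier ones. As for SLAMF1, the lowest 48 h value was that of replicate 3. SLAMF7 counts were 2.56-fold DMSO at 6 h (edgeR adjusted p = 4.7e-09), 2.45-fold at 24 h (no test), 5.15-fold at 48 h (adjusted p = 5.3e-13, and log2 2.45 without replicate 3) and 4.29-fold at 72 h (adjusted p = 1.8e-12). These tests share the DMSO libraries with the comparison by which SLAMF7 was chosen. From 24 to 48 h SLAMF7 counts differed by 1.07 on the log2 scale, given with no test, and by 1.16 without UM171 48 h replicate 3. From 48 to 72 h the log2 difference was -0.26 (adjusted p = 0.010).

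**Figure D2:**
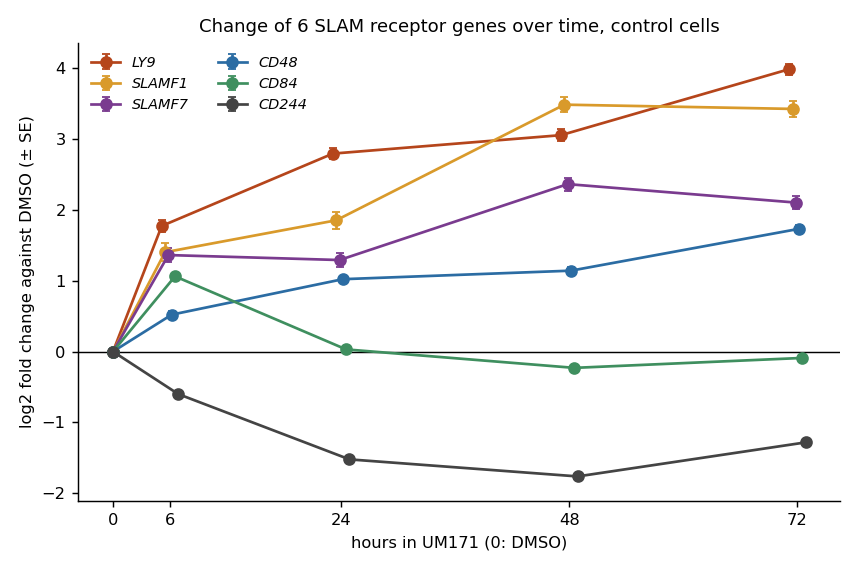
Log2 fold change of 6 SLAM receptor genes against DMSO (± SE from the edgeR fit) over hours in UM171, with DMSO drawn at 0 and points shifted slightly sideways for legibility. LY9 reaches 3.98 at 72 h, SLAMF1 and SLAMF7 are higher at 48 than at 24 h, CD84 peaks at 6 h with 1.06, and CD244 lies below 0 throughout.

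CD48, the ligand of CD244, was the most abundant member in every library. Its TPM was 104.58, 121.14 and 117.04 in DMSO, 171.84, 187.19 and 193.98 at 6 h, and 243.92, 244.96 and 234.92 at 24 h. It was 255.84, 277.83 and 219.18 at 48 h and 389.14, 405.40 and 419.50 at 72 h. Every treated library lay above DMSO, and only the 24 h and 48 h groups overlapped. CD48 counts were 1.43-fold DMSO at 6 h, 2.03-fold at 24 h (log2 1.02 ± 0.05, SE) and 3.32-fold at 72 h (log2 1.73 ± 0.05, edgeR adjusted p = 3.2e-15). At 24 h it was barely over 2-fold, and the log2 value was 0.98 without DMSO replicate 1.

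CD244, the receptor for CD48 on NK and myeloid cells, went the other way. Its TPM was 73.54, 76.80 and 77.52 in DMSO, 53.04, 61.20 and 53.83 at 6 h, and 25.79, 25.08 and 25.32 at 24 h. It was 20.41, 22.90 and 17.73 at 48 h and 28.17, 31.50 and 32.31 at 72 h. All 12 treated libraries lay below all 3 DMSO libraries, and the 72 h libraries lay above those of 24 and 48 h. The log2 fold change of CD244 was -0.60 at 6 h (edgeR adjusted p = 7.2e-09), -1.52 at 24 h, -1.76 ± 0.04 (SE) at 48 h (adjusted p = 4.4e-15) and -1.28 at 72 h. From 48 to 72 h CD244 counts came back by 0.48 on the log2 scale (adjusted p = 2.5e-07).

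The ratio of CD48 to CD244 TPM within a library needs no scaling between libraries. It ran from 1.42 to 1.58 in DMSO, 3.06 to 3.60 at 6 h, 9.28 to 9.77 at 24 h, 12.1 to 12.5 at 48 h and 12.9 to 13.8 at 72 h. No 2 of these groups overlapped, so the median ratio of ligand to receptor went from 1.51 in DMSO to 13.0 at 72 h. In sgEPCR DMSO the ratio was 2.61 to 4.50, and in sgEPCR UM171 7.61 to 15.2. In both sgEPCR groups the highest ratio belonged to the library with over 20% mitochondrial counts, whose part in the result was not tested. CD48 and CD244 together made up most of the family's TPM in DMSO, where CD48 was 47.5% to 50.9% of the sum and CD244 32.2% to 33.4%. At 72 h CD48 was 73.5% to 74.1% and CD244 5.36% to 5.71%, and the sum over the family had gone from 220.2 to 238.1 TPM in DMSO to 525.8 to 566.0 TPM.

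**Figure D3:**
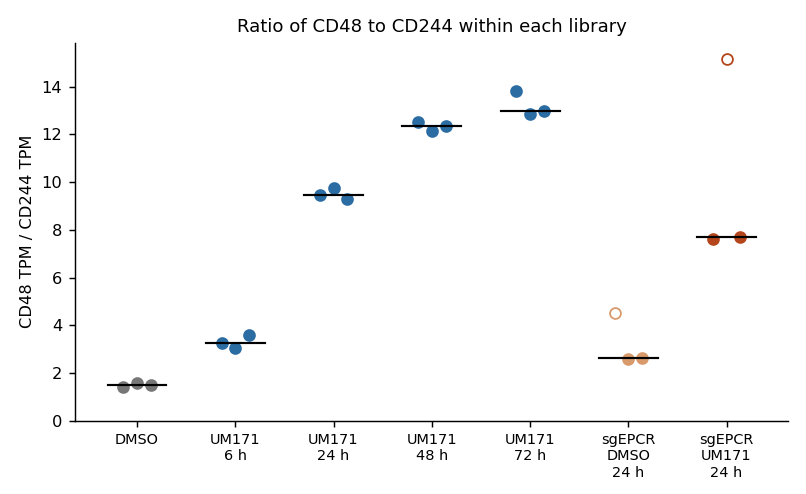
Ratio of CD48 to CD244 TPM in each of the 21 libraries (points) with the group median (bar), on a linear axis from 0. The 5 control groups do not overlap and run from 1.42 in DMSO to 13.8 at 72 h; open circles are the 2 libraries with over 20% mitochondrial counts.

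CD84, a homophilic receptor of monocytes, platelets and B cells, passed the limits in control cells at 6 h only. Its TPM was 33.45, 31.26 and 33.25 in DMSO and 78.63, 73.18 and 70.04 at 6 h. It was 32, 34.43 and 35.31 at 24 h, 27.67, 29.85 and 26.17 at 48 h, and 31.47, 34.26 and 32.32 at 72 h. The 6 h libraries stood above every other library of the series, the 24 h and 72 h groups overlapped DMSO, and every 48 h library lay below it. CD84 counts were 2.09-fold DMSO at 6 h (log2 1.06 ± 0.04, SE, edgeR adjusted p = 1.3e-12). From 6 to 24 h they fell by 1.04 on the log2 scale (adjusted p = 5.5e-13), or -0.98 without UM171 6 h replicate 1. Against DMSO the log2 values were 0.03 at 24 h (edgeR adjusted p = 0.50), -0.23 at 48 h (adjusted p = 3.7e-05, under 2-fold) and -0.09 at 72 h (adjusted p = 0.036).

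SLAMF6, also called NTB-A, was scarce throughout. Its counts were 8, 6 and 7 in DMSO, 44, 27 and 44 at 6 h, 17, 18 and 13 at 24 h, 31, 12 and 30 at 48 h, and 31, 49 and 35 at 72 h. All 12 treated libraries of control cells lay above DMSO. SLAMF6 passed the filter through its treated libraries, so its fit is not read as evidence of a change, although the counts of members at 6 and 72 h include it. Its fitted log2 value was 2.44 ± 0.40 (SE) at 6 h and 2.37 at 72 h, and both lost the limits when any 1 DMSO library was left out (edgeR adjusted p = 0.00021 to 0.00057). SLAMF9, an orphan receptor of dendritic cells and macrophages, had 0 to 15 counts. It did not pass the test at any time, and its lowest adjusted p in edgeR was 0.0012 at 72 h. SLAMF8, a myeloid receptor whose tail lacks the switch motif, had 0 to 10 counts in all 21 libraries. SH2D1A had 0 or 1 count. A count of 0 allows up to 3 counts, or 5.82e-06% to 1.24e-05% of a library's total, and this limit covers counting error only.

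The sgEPCR libraries asked how the response to UM171 differs in cells with a guide against EPCR. SLAMF7 and SLAMF1 had their lowest group mean in sgEPCR DMSO and their highest in sgEPCR UM171, whereas LY9 and CD48 stayed below the control cells in UM171. SLAMF7 TPM was 0.06, 0.24 and 0.18 in sgEPCR DMSO, from 2, 10 and 14 counts, and 42.01, 18.47 and 38.59 in sgEPCR UM171, from 2071, 1231 and 2455 counts. Every sgEPCR DMSO library lay below every DMSO library, and every sgEPCR UM171 library above every UM171 24 h library. The log2 fold change of SLAMF7 was 7.61 in sgEPCR cells and 1.30 in control cells at 24 h of the same fit, a difference of 6.30 ± 0.24 (SE) with no test, since SLAMF7 was chosen for it. By size this difference ranked 73 of 15901 genes. Without the 2 libraries with high mitochondrial counts it was 6.12. The fold on this scale rests on the few SLAMF7 counts in sgEPCR DMSO, and adding 1 TPM to the group means brought the difference to 3.69.

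Counted against DMSO, SLAMF7 in sgEPCR DMSO was at -4.49 on the log2 scale (-4.28 without the 2 libraries), while in UM171 it was 1.82 (1.85) above control cells treated for the same time. The side in DMSO was the larger in size, and there the labelled hours differ as well, 72 h in DMSO and 24 h in sgEPCR DMSO. After TPM was rescaled without mitochondrial genes, SLAMF7 was at 0.130, 0.283 and 0.216 TPM in sgEPCR DMSO and at 50.6, 38.4 and 46.5 TPM in sgEPCR UM171, so that the library with high mitochondrial counts stood nearer to the other 2.

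SLAMF1 had the same shape. Its TPM was 0.25, 1.19 and 1.44 in sgEPCR DMSO and 42.55, 19.52 and 41.74 in sgEPCR UM171, and rescaled without mitochondrial genes the latter were 51.2, 40.6 and 50.2. Every sgEPCR UM171 library lay above every UM171 24 h library. SLAMF1 rose by 5.49 ± 0.17 (SE) on the log2 scale in sgEPCR cells, or 44.9-fold (edgeR adjusted p = 4.3e-09), and by 5.43 without the 2 libraries. Between genotypes it was -0.97 in DMSO (adjusted p = 0.00088, short of the limits, and -0.85 without the 2 libraries) and 2.65 ± 0.17 in UM171 (adjusted p = 4.6e-07), or 2.74 without the 2 libraries. The response difference was 3.62 on the log2 scale, given with no test because it is the contrast by which SLAMF7 was chosen. It was 3.58 without the 2 libraries, and 2.65 and 2.68 when 1 TPM was added before taking logs, per library and to the group means. For SLAMF1 the side of the difference in UM171 was the larger in size, and for SLAMF7 the side in DMSO. The ratio of SLAMF1 to SLAMF7 TPM was 4.17 to 8 in sgEPCR DMSO, against 0.370 to 1.17 in the control groups. In sgEPCR UM171 it was 1.01 to 1.08, within the range of the control groups. The ratio in sgEPCR DMSO rests on the few SLAMF7 counts there, which belong to the comparison by which SLAMF7 was chosen.

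**Figure D4:**
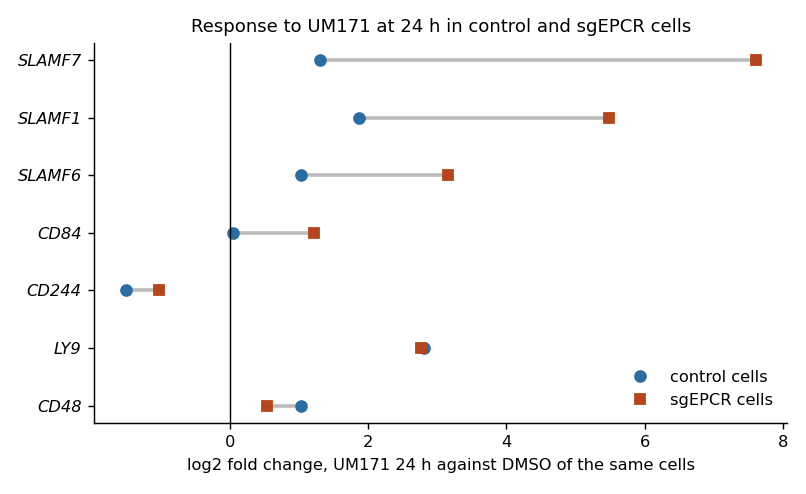
Log2 fold change of UM171 24 h against the DMSO libraries of the same cells, for control cells (circles) and sgEPCR cells (squares), for the 7 members tested in the genotype fit; grey lines join the values of a gene. SLAMF7 shows 7.61 in sgEPCR and 1.30 in control cells, LY9 2.76 and 2.80, and SLAMF6 rests on 3 counts in sgEPCR DMSO.

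In sgEPCR UM171 against sgEPCR DMSO, 6 of the other 9 members passed the filter, and 3 of them rose (SLAMF1, LY9 and CD84), against 6.99% of all 15901 genes that rose and 3.33% that fell. LY9 was at 1.07, 1.54 and 1.73 TPM in sgEPCR DMSO and at 11.32, 6.21 and 11.12 TPM in sgEPCR UM171. LY9 rose by 2.76 ± 0.14 (SE) in sgEPCR cells (edgeR adjusted p = 9.1e-08), beside 2.80 in control cells of the same fit, a difference of -0.05 ± 0.19. Without the 2 libraries LY9 rose by 2.92 and the difference was 0.13, and on the log2(TPM + 1) scale the difference was -0.56, so its sign is not settled. Every sgEPCR UM171 library was below every UM171 24 h library for LY9, with a log2 value of -0.82 (adjusted p = 0.00035, short of the limits), or -0.78 without the 2 libraries.

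CD84 was at 8.38, 11.42 and 11.35 TPM in sgEPCR DMSO, below all other libraries of the series, and at 33.19, 24.42 and 29.83 TPM in sgEPCR UM171. It fell between genotypes in DMSO by 1.31 on the log2 scale (edgeR adjusted p = 4.6e-06), or -1.40 without the 2 libraries with high mitochondrial counts. CD84 was the 1 of 6 members tested that passed the limits there, against 1.41% of all genes that fell and 1.43% that rose. In sgEPCR cells UM171 raised CD84 2.32-fold (log2 1.21 ± 0.09, SE, adjusted p = 1.9e-06, and 1.21 without the 2 libraries), where control cells at the same time had a log2 value of 0.04. In UM171 the 2 genotypes overlapped for CD84, with a log2 value of -0.13 (edgeR adjusted p = 0.27), and without the 2 libraries the value was -0.22 (adjusted p = 0.00015).

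CD48 and CD244 kept their directions in sgEPCR cells without passing the limits over all libraries. CD48 was at 49.54, 93.92 and 96.31 TPM in sgEPCR DMSO and at 160.15, 100.19 and 151.14 TPM in sgEPCR UM171. Its log2 fold change was 0.54 ± 0.10 (SE, edgeR adjusted p = 0.00078), or 0.50 (adjusted p = 7.9e-07) without the 2 libraries, against 1.03 in control cells. In UM171 every sgEPCR library was below every control library for CD48, with a log2 value of -0.58 (adjusted p = 0.00068), or -0.69 without the 2 libraries. CD244 was at 11.00, 36.05 and 36.49 TPM in sgEPCR DMSO and at 21.04, 6.61 and 19.59 TPM in sgEPCR UM171, and the lowest library of each group was the one with high mitochondrial counts, also after rescaling without mitochondrial genes (23.9 and 13.7 TPM). Its log2 fold change was -1.03 ± 0.20 (edgeR adjusted p = 0.0012), and without these 2 libraries -1.01 ± 0.04 (adjusted p = 7.8e-11), which passed both limits. The smaller SE there rests on 2 closely alike libraries in each sgEPCR group. All sgEPCR DMSO libraries were below the DMSO libraries for CD244, with a log2 value of -1.10 (adjusted p = 0.0014), or -0.93 (adjusted p = 1.1e-10) without the 2 libraries.

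SLAMF6 had 0, 0 and 3 counts in sgEPCR DMSO and 10, 7 and 16 in sgEPCR UM171, too few for a fold change. SLAMF9 had 0 counts in all 3 sgEPCR DMSO libraries and 4, 1 and 9 in sgEPCR UM171. In sgEPCR UM171 against UM171 24 h, SLAMF1 was the 1 member of 6 that rose, against 2.67% of all genes that rose and 1.79% that fell.

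The signalling genes downstream of the receptors were counted from a list of 21, of which 18 passed the filter. SH2D1B, the gene of the other adaptor, had 0 to 3 counts, so neither adaptor gene was above trace levels in these cells. FYN, the kinase that SAP recruits, rose at every time: 2.70 to 4.74 TPM in DMSO, 10.22 to 12.96 at 6 h, 12.59 to 15.57 at 24 h, 26.65 to 30.18 at 48 h and 68.31 to 73.58 at 72 h. At 72 h its log2 fold change was 4.61 ± 0.11 (SE, edgeR adjusted p = 1.2e-15), and it was 2.20 in sgEPCR cells (adjusted p = 1.3e-06), or 2.11 without the 2 libraries. FYN was the only listed gene to rise at 6, 24 and 72 h, and at 48 h SRC, a related kinase, rose as well (log2 1.09, adjusted p = 4.5e-05). SRC was scarce, and its TPM of 0.53 to 0.81 in DMSO touched that at 48 h, 0.81 to 1.30. In sgEPCR cells SRC went from 0.20 to 0.27 TPM in DMSO, from 4 to 9 counts per library, to 0.64 to 2.26 TPM in UM171, from 48 to 174 counts. The folds of SRC in sgEPCR cells rest on these few counts in DMSO. Its log2 fold change there was 4.09 ± 0.35 (edgeR adjusted p = 3.6e-06), or 4.38 without the 2 libraries. Without them SRC also passed the limits between genotypes, with log2 values of -2.10 among the DMSO libraries (edgeR adjusted p = 5e-05) and 2.03 among those with UM171 (2e-07).

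Of the listed genes that fell, LAT, a scaffold of T cell receptor signalling, was at -1.61, -1.06 and -1.20 on the log2 scale at 24, 48 and 72 h, and in UM171 it was higher in sgEPCR than in control cells (1.59, edgeR adjusted p = 8.8e-05), or 1.73 without the 2 libraries. FGR, another kinase of the SRC family, fell at 24 h (-1.63) and was again at 1.49 to 2.16 TPM at 48 h, with steps of 1.45 from 24 to 48 h and 1.17 from 48 to 72 h. At 72 h CSK, which holds SRC family kinases in check, fell by 1.13 and DOK2, an adaptor of myeloid cells, by 1.08. The phosphatase genes stayed abundant. PTPN6 was at 263.8 to 282.2 TPM in DMSO and 173.9 to 187.2 TPM at 72 h, PTPN11 at 80.6 to 91.6 and 89.5 to 93.4, and INPP5D at 118.6 to 128.4 and 139.9 to 145.2. None of these 3 passed the limits in any comparison. Over the 18 genes the median log2 value at 72 h was -0.14, beside 0.02 over all genes.

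The protein-coding neighbours, the other genes between SLAMF8 and CD244, were followed in the same way. All 20 lie on the SLAMF8 side of SLAMF6. The last ends at 160428670 and SLAMF6 starts at 160485030, so none lies among the 7 clustered receptor genes. Of the 20, 11 passed the filter. IGSF8, a tetraspanin partner of the immunoglobulin superfamily, rose by 1.59 at 48 h and 2.14 ± 0.07 (SE, log2) at 72 h (edgeR adjusted p = 7.0e-14). PEA15, a small adaptor of ERK signalling, rose at 48 h (1.09), NHLH1, a neuronal transcription factor, fell at 24 h (-2.29) and CFAP45, a cilia protein gene, fell at 6 h (-1.15). In sgEPCR UM171 against sgEPCR DMSO, 3 neighbours were higher and 2 lower at an edgeR adjusted p under 0.05, all short of the limits, where 27% and 25.1% of all genes were. The median of the 11 neighbours at 72 h was -0.09.

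**Figure D5:**
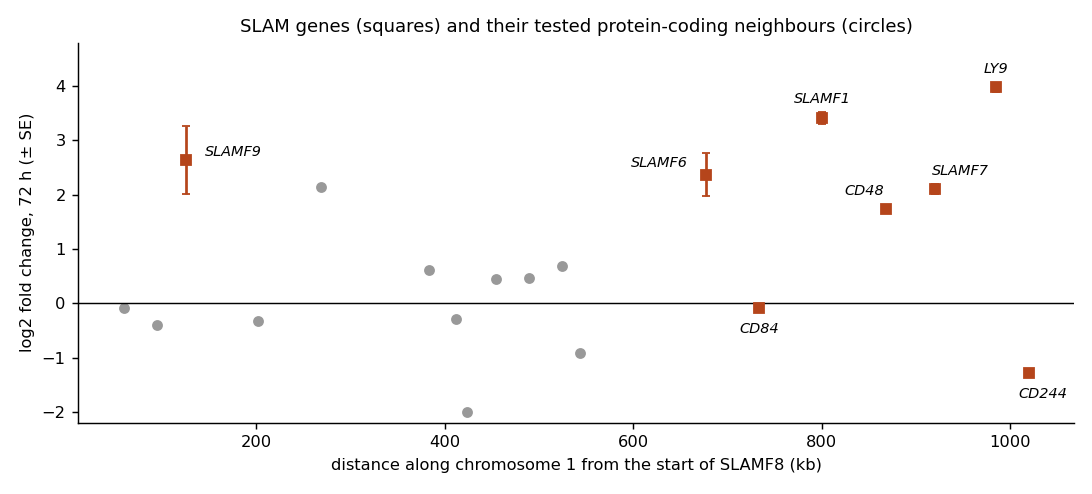
Log2 fold change at 72 h of UM171 against DMSO, for the 8 tested SLAM genes on chromosome 1 (squares, ± SE from the edgeR fit) and their 11 tested protein-coding neighbours, all on the SLAMF8 side of SLAMF6 (circles), by the distance of each gene's middle from the start of SLAMF8. LY9 and CD244 are adjacent and at 3.98 and -1.28, and the circle at 2.14 is IGSF8; the lowest circle, at -2.01, did not pass the test.

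Across all 21 libraries, the log2 CPM of CD48 and LY9 had a Pearson r of 0.95, SLAMF1 and SLAMF7 of 0.88, and SLAMF1 and CD244 of -0.69. These libraries share treatments and control cells, so the values are descriptions with no test. The gene most like SLAMF7 in pattern was MPZL3 (r = 0.986 over 21 libraries), followed by TES and ZNF697. For SLAMF1 it was CDCP1 (r = 0.981), followed by ARRDC3 and FAM114A1. ATM was closest to CD48 (r = 0.966), NEK1 to CD84 (r = 0.95), SIRPA to CD244 (r = 0.985) and P2RX7 to LY9 (r = 0.985). TECPR2 was closest to SLAMF6 (r = 0.925) and FGL2 to SLAMF9 (r = 0.887).

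Summed marker levels differed between the groups too. The myeloid sum was 613.9 to 637.8 TPM in DMSO, 514.4 to 527.7 at 6 h, 380.6 to 419.4 at 24 h, 394.0 to 460.8 at 48 h, 486.7 to 499.5 at 72 h, 149.5 to 379.6 in sgEPCR DMSO and 164.8 to 460.0 in sgEPCR UM171. Summed T cell markers went from 1.38 to 1.86 TPM in DMSO to 16.38 to 19.98 TPM at 72 h. CD3D was at up to 18.81 TPM and CD3E at or below 0.11 TPM in every library. Summed B cell markers were at 9.48 to 10.43 TPM in DMSO, 7.97 to 9.53 at 6 h and 27.47 to 30.63 at 24 h. They were at 35.91 to 40.68 TPM at 48 h and 20.75 to 23.75 at 72 h. In sgEPCR DMSO they were at 7.97 to 21.53 TPM and in sgEPCR UM171 at 5.87 to 13.72 TPM. Their part in the SLAM results was not tested. In bulk libraries of this kind, more cells with a transcript and more transcript per cell cannot be told apart.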

How the data were processed

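Polyadenylated RNA of 21 OCI-AML5 libraries was sequenced after Trizol and RNeasy extraction with a stranded KAPA kit. The authors deposited, per gene and library, RSEM expected counts and TPM. The submitters' processing notes name CASAVA 1.8.2, Trimmomatic 0.35, STAR 2.5.1b, RSEM 1.2.28 and GRCh38, while the study's methods describe a pseudoalignment; the strand setting of the counting is not given in the sources used here. The labels state 500 nM UM171 and a DMEM medium, which the study's text gives differently.

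Here the expected counts were rounded and tested with edgeR 4.0.16 (quasi-likelihood, TMM scaling, default expression filter by group) in R 4.3.3, in 1 fit for the time course (15 libraries, 16575 genes) and 1 for the genotypes (12 libraries, 15901 genes). Adjusted p-values cover all genes tested. Standard errors were taken as the log2 fold change over the root of the F statistic. A change needed an adjusted p under 0.0001 and over 2-fold. TPM values are printed as deposited. The code was tested on simulated counts before use. Members, gene lists and tests were chosen with earlier results of these data known. SLAMF7 was given no test in the genotype comparisons or where the UM171 24 h libraries enter, since these were used to choose it. Named genes are every member, the listed signalling genes and neighbours past the limits, the 3 genes most like each member (average log2 CPM over 2) and PROCR; markers and 3 phosphatase genes were named after their values were seen. The alternatives tried used 2 other tools (DESeq2 version 1.42.0, and limma version 3.58.1 with TPM on the log2(TPM + 1) scale), 2 other scalings, 2 other filters, a replicate block, all 21 libraries in 1 fit, a looser limit, leaving out each library or the 2 libraries over 20% mitochondrial, and log2 of mean TPM with a pseudocount of 0.1 or 1. No amino acid sequence was used here.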

Additional observations from a re-analysis of the deposited data

Results flagged for a closer look

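The steps between neighbouring time points, which test the difference between the responses at 2 times, passed both limits of the edgeR test for 3 members. CD84 differed by -1.04 on the log2 scale between 24 and 6 h (adjusted p = 5.5e-13), its response going from a rise at 6 h to 0.03 at 24 h. LY9 differed by 1.02 over the same interval (adjusted p = 9.5e-10). Between 48 and 24 h SLAMF1 differed by 1.63 (adjusted p = 5.5e-10). The steps of CD84 and LY9 came within 2-fold without 1 library each, and that of LY9 also under 2 other scalings. No outlier test was run on the groups of 3 libraries.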

How the results depend on the processing

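In the time course against DMSO, the counts of members past the limits moved by less than 1.5 times under every other tool, scaling, filter and left-out library tried: leaving out 1 library gave 4 to 5 at 6 h, 3 to 4 at 24 h, 5 at 48 h and 5 to 6 at 72 h. The higher counts at 6 and 72 h include SLAMF6, which passed the filter through its treated libraries. At an adjusted p under 0.05 with no minimum fold, where 33.7% to 75.6% of all genes pass in a comparison, the counts were 8 at 48 h, 6 from 6 to 24 h, 6 from 24 to 48 h, 5 from 48 to 72 h, 6 in sgEPCR UM171 against sgEPCR DMSO, 5 in sgEPCR DMSO against DMSO and 4 in sgEPCR UM171 against UM171 24 h. Requiring 10 counts in every library gave 1 member from 6 to 24 h (1330 of 13388 genes passed), where leaving out 1 library gave 1 to 2. Upper quartile and total count scaling each gave 1 from 48 to 72 h, where 654 and 625 of 16575 genes passed. limma on log2(TPM + 1) gave 1 in sgEPCR UM171 against sgEPCR DMSO, where it called 270 of all 15901 genes and edgeR 1642. It gave 0 in the other 2 sgEPCR comparisons, where it called 12 of all genes in DMSO and 58 in UM171, and edgeR 452 and 709. There edgeR at an unadjusted p under 0.05 gave 5 members lower in DMSO (21.1% of all genes). In UM171 it gave 1 higher and 3 lower (24.7% and 26.2%). At the main limits DESeq2 gave 2 and 1 members there, with 1066 and 1484 of all genes called. Total count scaling gave 0 in sgEPCR UM171 against UM171 24 h (SLAMF1 edgeR adjusted p = 0.00012), where 296 of 15901 genes passed. It moved the median of all genes by up to -0.25 on the log2 scale, in sgEPCR DMSO against DMSO. DESeq2 and the fit of all 21 libraries gave 2 in sgEPCR DMSO against DMSO, adding CD244. The SLAMF7 response difference was 3.61 under limma and 3.69 from log2(mean TPM + 1), where the pseudocount exceeds every SLAMF7 value in sgEPCR DMSO; rescaling without mitochondrial genes was chosen after seeing the data.

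Among tested values, signs turned for these, all near 0: under limma SLAMF9 at 24 h (0.01), CD84 at 72 h (0) and SLAMF1 from 48 to 72 h (0.02), the last also under upper quartile (0.02) and total count scaling (0.01). Leaving out 1 library gave -0.8 to 0.41 for SLAMF9 at 24 h and -0.16 to 0.5 for SLAMF9 from 48 to 72 h. The untested LY9 response difference (-0.05) was 0.02 by DESeq2, 0.09 and 0.11 under the other scalings and -0.16 to 0.08 without 1 library.

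Same-numbered libraries did not deviate together in the time course (0 of 30 pairs with a correlation over 0.1, range -0.083 to 0.077). The 3 same-numbered sgEPCR pairs ranged from -0.513 to 0.361, so the numbers do not pair samples. Some sgEPCR libraries with different numbers did deviate together. The libraries with high mitochondrial counts, sgEPCR DMSO replicate 1 and sgEPCR UM171 replicate 2, had a correlation of 0.595. Pairs with different numbers and neither of these libraries were at 0.391 to 0.426. Those with 1 of these libraries were at -0.487 and -0.448. With the replicate number as a block, counts in the time course were within 1.5 times. In the genotype fit the block gave 2 members in sgEPCR UM171 against sgEPCR DMSO (CD84 edgeR adjusted p = 0.00062), where 114 of all 15901 genes passed. It gave 0 members in sgEPCR DMSO against DMSO (CD84 adjusted p = 0.016) and 0 in sgEPCR UM171 against UM171 24 h (SLAMF1 adjusted p = 0.0055). In each of these comparisons 0 of all genes passed with the block. The log2 values with the block were -1.25 for CD84 and 2.63 for SLAMF1, beside -1.31 and 2.65 without it. The block was set within genotype, so block and genotype are not separate in these comparisons. The counts of 0 there therefore decide nothing about the members. The cause of the higher adjusted p-values was not tested.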
